A study of Mus musculus with 12 samples.

Results

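The 10 genes described here encode the MHC class I heavy chains (*H2-K1* and *H2-D1*), their light chain (*B2m*), the peptide transporter and its loading chaperone (*Tap1*, *Tap2* and *Tapbp*), the catalytic subunits of the immunoproteasome (*Psmb8*, *Psmb9* and *Psmb10*) and *Nlrc5*. They were chosen by name, with earlier results of these data known, so their levels and folds are a description and carry no test. All 10 were among the 12528 genes of the data. RNA was sequenced in 12 libraries of cells sorted from adult C57BL/6 mouse hearts, in 3 groups of 4: AMI *Bmi1*-CPC, homeostatic *Bmi1*-CPC and *Sca-1*-YFP- cells. All mice carried 1 *Bmi1*CreER allele and 1 *Rosa26*YFP allele (*Bmi1*-YFP mice) and had received 3 tamoxifen injections, each of 9 mg for 40 g of mouse. Tamoxifen turns on YFP in cells that express Cre from the *Bmi1* gene, and their descendants keep it. AMI *Bmi1*-CPC were YFP+ cells taken 5 days after acute myocardial infarction, set by ligation of the left anterior descending artery 5 days after tamoxifen. Homeostatic *Bmi1*-CPC were YFP+ cells taken from unoperated hearts 5 days after tamoxifen, and *Sca-1*-YFP- cells were SCA-1+, YFP- cells of such hearts, sorted after CD45+ cells had been removed. Removal of CD45+ cells is not described for the YFP+ sort, and the names of the YFP+ samples read as SCA-1 positive too. Each AMI library pooled 2 to 3 mice, and each homeostatic or *Sca-1*-YFP- library pooled 6. No sham-operated libraries were analysed, so surgery and infarction cannot be told apart, and the AMI cells were also taken longer after tamoxifen.

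Class I molecules show peptides made inside a cell to CD8 T cells, and nearly every nucleated cell carries them. The proteasome cuts cytosolic proteins, the TAP transporter carries the fragments into the endoplasmic reticulum, tapasin (*Tapbp*) holds an empty heavy chain beside TAP until a peptide fits, and beta-2 microglobulin (*B2m*) completes the molecule. Interferon-gamma makes cells replace the constitutive catalytic subunits PSMB5, PSMB6 and PSMB7 with PSMB8, PSMB9 and PSMB10, which cut more fragments of the kind that class I binds. NLRC5 is the class I transactivator: it is recruited by factors bound to the conserved X and Y boxes of class I promoters. Endothelial cells are known for high class I, and leukocytes for both class I and immunoproteasome.

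The sequences that NLRC5 and interferon act through lie close to the start sites. A stretch of the heavy chains and *B2m* is shown because only these 3 members held its pair of motifs. In each, the X2 core TGACG (part of the cAMP response element that CREB and ATF1 bind) was followed on the same strand by the Y box ATTGG (the NF-Y site) after 20 bases. Capitals mark the X2 core and the Y box, 5′ to 3′ on the gene's strand, from RefSeq with build GRCm38.p6.
H2-K1, chr17:34000359-34000388, minus strand: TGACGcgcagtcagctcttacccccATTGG
H2-D1, chr17:35262993-35263022, plus strand: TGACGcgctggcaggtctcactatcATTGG
B2m, chr2:122147609-122147638, plus strand: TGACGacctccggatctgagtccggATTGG
*H2-K1* and *H2-D1* were identical at 23 of these 30 bases, *H2-K1* and *B2m* at 13 of 30, and *H2-D1* and *B2m* at 12 of 30. An X2 core followed by a Y box after 5 to 40 bases, searched on both strands, stood in the 250 bases before the start of 0.904% of 32851 RefSeq promoters and in 3 of the 8 members whose promoter was matched. *Tap2* and *Nlrc5* had no matched promoter. The start used for *H2-K1*, on the minus strand, was chr17:34000347, whereas its RefSeq gene span reaches 34000619. Its 250 bases therefore lie inside that span.

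The neighbouring upstream stretch is shown for the same genes because it holds the matches to NF-kB and interferon elements. Capitals mark a kappaB match and an interferon-stimulated response element (ISRE) type match.
H2-K1, chr17:34000429-34000458, minus strand: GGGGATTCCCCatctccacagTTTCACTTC
H2-D1, chr17:35262923-35262952, plus strand: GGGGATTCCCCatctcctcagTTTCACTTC
B2m, chr2:122147548-122147570, plus strand: GAAACTGAAaatgGGAAAGTCCC
The *H2-K1* and *H2-D1* stretches were identical at 29 of 30 bases. The *B2m* match was to the ISRE core GAAANNGAA, present in 7.13% of all promoters. The matches of *H2-K1* and *H2-D1* were to GAANNGAAA on the opposite strand, present in 6.31% of all promoters and searched only after these promoters had been seen. A kappaB match was present in 7.25% of all promoters and in 3 of the 8 members, the same *H2-K1*, *H2-D1* and *B2m*. Elsewhere, *Psmb8* held the interferon-gamma activated site TTCNNNGAA, present in 7.02% of all promoters. An X2 core, found in 17.8% of all promoters, was present in 5 of the 8 members, and a Y box, found in 33.8%, in 6 of 8. In both counts *Psmb9* and *Tap1* hold the same X2 core and the same Y box, because their windows overlap. *Psmb10* held none of these letters in the window. The matches are descriptions of letters, not of binding.

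**Figure D1:**
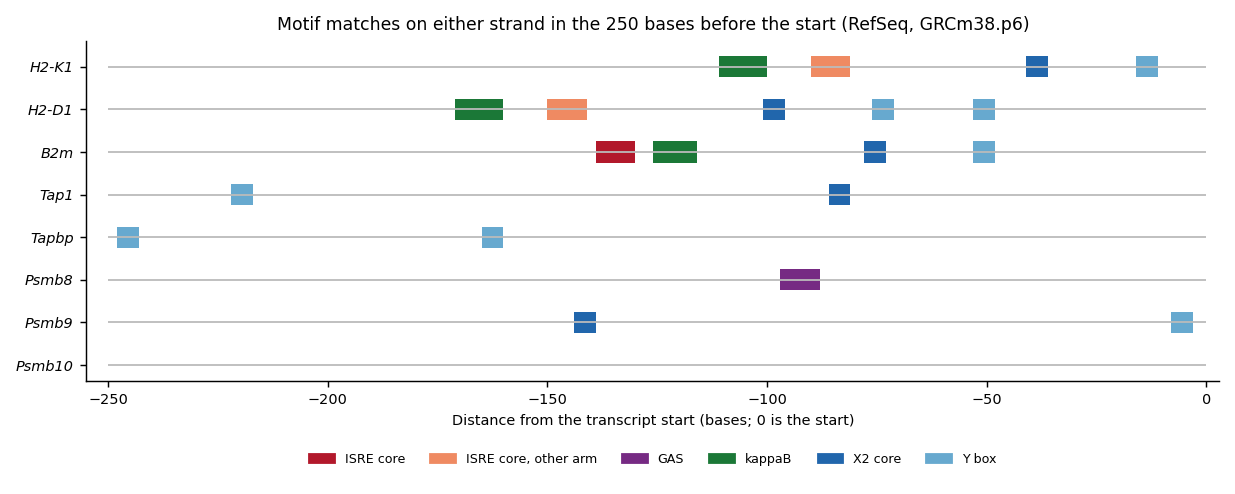
Motif matches on either strand in the 250 bases before the RefSeq start of the 8 members with a matched promoter; the horizontal axis is the distance from the start in bases, and each coloured block is 1 match. The X2 core and Y box pair of *H2-K1*, *H2-D1* and *B2m* has the same 20-base gap but lies at different distances from the start used. The distance of *H2-K1* depends on which RefSeq start is taken. The X2 core and Y box of *Psmb9* are the same bases as those of *Tap1*, and *Psmb10* has no match.

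The members lay on 3 chromosomes. On chromosome 17, *Psmb9*, *Tap1*, *Psmb8* and *Tap2* stood side by side within 34292 bases, chr17:34182030-34216321, inside the MHC. *Psmb9* and *Tap1* are read in opposite directions, from RefSeq starts with 225 bases between them. *Tapbp*, *H2-K1* and *H2-D1* were also on chromosome 17, *Psmb10* and *Nlrc5* were on chromosome 8, and *B2m* was on chromosome 2. The libraries did not keep strand, so reads of exon bases shared with a gene of the opposite strand cannot be told apart. Over all transcripts of the basic set of GENCODE M21, *Psmb9* and *Tap1* share 212 exon bases. There *Tapbp* shares 682 exon bases with *Gm19412*, *Tap2* 518 with *Gm15821* and *Psmb8* 186 with *Gm20496*, all on the opposite strand. *H2-D1* shares a stretch of 280 bases with *H2-Q7* at 96.4% identity, so that their reads may have been split between them.

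Libraries held 6784686 to 8078721 reads in AMI *Bmi1*-CPC, 4063619 to 4993906 in homeostatic *Bmi1*-CPC and 3397621 to 8031666 in the *Sca-1*-YFP- cells. Levels are given as the deposited normalized values, in which 3 reads equal 0.369 to 1.04. The mitochondrial rRNA gene *mt-Rnr2* took 20.3 to 33.4% of the reads in AMI *Bmi1*-CPC, 25.0 to 32.8% in homeostatic *Bmi1*-CPC and 10.4 to 23.7% in the *Sca-1*-YFP- cells. *Ly6a*, which encodes SCA-1, averaged 577, 809 and 642, and *Bmi1* averaged 45.5, 48.7 and 28.1, in AMI *Bmi1*-CPC, homeostatic *Bmi1*-CPC and *Sca-1*-YFP- cells. The leukocyte gene *Ptprc* (CD45) averaged 93.4 ± 38.4 in AMI *Bmi1*-CPC, 17.4 ± 3.44 in homeostatic *Bmi1*-CPC and 1.62 ± 0.560 in the *Sca-1*-YFP- cells (SD, n = 4 each). Libraries are pools of mice, and p-values measure the spread between these pools.

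Most members were highest in homeostatic *Bmi1*-CPC. Their mean was highest in that group for 9 of the 10, and *B2m* was the exception, with its highest mean in AMI *Bmi1*-CPC. In AMI *Bmi1*-CPC over homeostatic *Bmi1*-CPC, 9 of the 10 passed the threshold as lower and none as higher, where the threshold is a limma adjusted p under 0.05 over 12486 genes. Among all those genes, 22% passed as lower and 21.4% as higher. In homeostatic *Bmi1*-CPC over *Sca-1*-YFP- cells, 9 of the 10 passed as higher and none as lower, among 12450 genes of which 16.8% passed as higher and 17.6% as lower. In each comparison the libraries of the groups did not overlap for 8 members, as for 40.6% of all genes in the AMI comparison and 33.7% in the homeostatic one. Nothing is read from these counts beside the shares, since the members were chosen with them known. The median log2 fold change of the members was -0.66 in the AMI comparison, against -0.02 over all genes, and 0.79 in the homeostatic comparison, against 0.00 over all genes. Both comparisons use the same 4 homeostatic *Bmi1*-CPC libraries, so a level that happened to be high in them moves both. In sorted bulk cells, fewer cells of a type and less RNA per cell cannot be told apart.

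**Figure D2:**
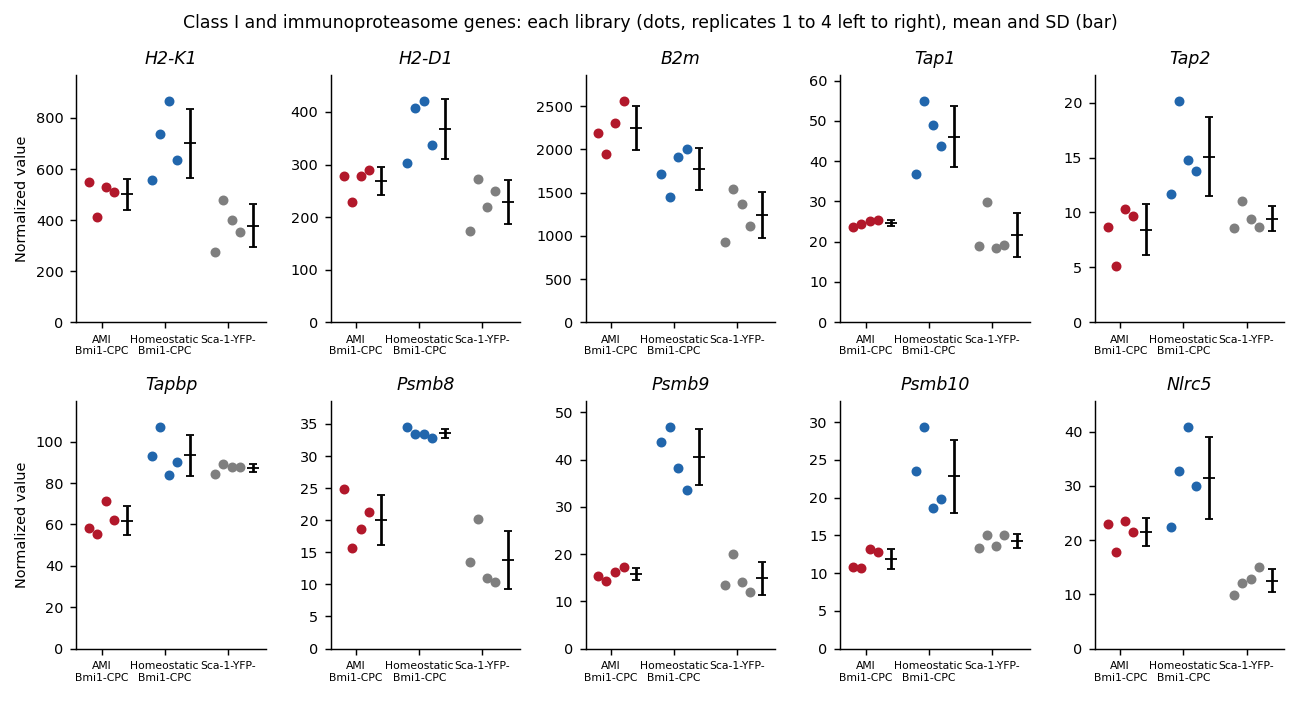
Deposited normalized value of each member in every library (vertical axes, from 0), with AMI *Bmi1*-CPC, homeostatic *Bmi1*-CPC and *Sca-1*-YFP- cells from left to right; dots are libraries and the black bar is the mean with its SD. The mean of homeostatic *Bmi1*-CPC is the highest in every panel except *B2m*, where AMI *Bmi1*-CPC average 2251 and homeostatic *Bmi1*-CPC 1773.

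The heavy chains were lower after AMI, and higher in homeostatic *Bmi1*-CPC than in the *Sca-1*-YFP- cells. *H2-K1*, the K heavy chain, had values of 551, 411, 531 and 509 in AMI *Bmi1*-CPC, 558, 739, 866 and 637 in homeostatic *Bmi1*-CPC, and 276, 479, 402 and 355 in the *Sca-1*-YFP- cells. Every homeostatic *Bmi1*-CPC library lay above every library of the other groups, though the lowest exceeded the highest AMI library by little. The log2 fold change of *H2-K1* was -0.47 ± 0.14 (SE) in the AMI comparison and 0.90 ± 0.18 in the homeostatic one. *H2-D1*, the D heavy chain, had values of 278, 229, 277 and 290 in AMI *Bmi1*-CPC, 303, 408, 421 and 337 in homeostatic *Bmi1*-CPC, and 174, 272, 219 and 250 in the *Sca-1*-YFP- cells. The groups were ordered as for *H2-K1*, with AMI libraries overlapping the *Sca-1*-YFP- libraries. *H2-D1* had a log2 fold change of -0.44 ± 0.12 in the AMI comparison and 0.69 ± 0.15 in the homeostatic one. Without AMI *Bmi1*-CPC replicate 2, the lowest library of that group for both genes, *H2-K1* no longer passed in the AMI comparison, with a log2 fold change of -0.38. With edgeR on library totals, neither *H2-K1* (-0.40) nor *H2-D1* (-0.36) passed in that comparison.

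*B2m*, the light chain of every class I molecule, did not follow the heavy chains after AMI. It had values of 2191, 1946, 2309 and 2558 in AMI *Bmi1*-CPC, 1716, 1451, 1915 and 2008 in homeostatic *Bmi1*-CPC, and 930, 1537, 1362 and 1119 in the *Sca-1*-YFP- cells. The AMI and homeostatic libraries overlapped, as did the homeostatic and *Sca-1*-YFP- libraries, while every AMI library lay above every *Sca-1*-YFP- library. The log2 fold change was 0.35 ± 0.14 in the AMI comparison, which did not pass, and 0.53 ± 0.18 in the homeostatic one, which passed. The AMI value passed once AMI *Bmi1*-CPC replicate 2 was left out, at 0.42. The homeostatic value did not pass without homeostatic *Bmi1*-CPC replicate 1 (0.55), 3 (0.49) or 4 (0.47), or without *Sca-1*-YFP- replicate 1 (0.41) or 4 (0.49), nor with edgeR on library totals (0.28). Within each library, the ratio of *H2-K1* to *B2m* averaged 0.223 in AMI *Bmi1*-CPC, 0.401 in homeostatic *Bmi1*-CPC and 0.305 in the *Sca-1*-YFP- cells. The ratio of *H2-D1* to *B2m* averaged 0.119, 0.211 and 0.187 in the same order of groups. The ratio of *H2-K1* to *H2-D1* averaged 1.86 in AMI *Bmi1*-CPC, 1.90 in homeostatic *Bmi1*-CPC and 1.65 in the *Sca-1*-YFP- cells, with overlapping libraries.

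Both subunits of the TAP transporter were lower after AMI. *Tap1* had values of 23.7, 24.3, 25.1 and 25.3 in AMI *Bmi1*-CPC, 36.8, 54.9, 48.9 and 43.9 in homeostatic *Bmi1*-CPC, and 18.9, 29.8, 18.5 and 19.2 in the *Sca-1*-YFP- cells. The AMI libraries were close together, and *Sca-1*-YFP- replicate 2 stood above the rest of its group and above every AMI library. *Tap1* had a log2 fold change of -0.87 ± 0.12 in the AMI comparison and 1.07 ± 0.18 in the homeostatic one. *Tap2*, the other subunit, had values of 8.67, 5.11, 10.3 and 9.72 in AMI *Bmi1*-CPC, 11.7, 20.2, 14.7 and 13.8 in homeostatic *Bmi1*-CPC, and 8.58, 11.0, 9.41 and 8.69 in the *Sca-1*-YFP- cells. Its homeostatic libraries were the highest, by a small margin over *Sca-1*-YFP- replicate 2, and its AMI and *Sca-1*-YFP- libraries overlapped. *Tap2* had a log2 fold change of -0.78 ± 0.22 in the AMI comparison and 0.61 ± 0.18 in the homeostatic one. The homeostatic value of *Tap2* did not pass without homeostatic *Bmi1*-CPC replicate 2 (0.47), or without *Sca-1*-YFP- replicate 1 (0.57) or 4 (0.57), nor with edgeR on library totals (0.45).

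*Tapbp* differed between the *Bmi1*-CPC groups and not detectably between homeostatic *Bmi1*-CPC and *Sca-1*-YFP- cells. Tapasin bridges TAP and the heavy chain. *Tapbp* had values of 58.1, 55.2, 71.5 and 62.2 in AMI *Bmi1*-CPC, 93.1, 107, 83.7 and 90.0 in homeostatic *Bmi1*-CPC, and 84.5, 89.0, 87.7 and 87.9 in the *Sca-1*-YFP- cells. Every AMI library lay below every library of the other groups, and the *Sca-1*-YFP- libraries lay within the homeostatic range. The log2 fold change was -0.59 ± 0.11 in the AMI comparison and 0.09 ± 0.10 in the homeostatic one, which did not pass. Beside the overlap with *Gm19412*, its longest coding transcript shares stretches of up to 151 bases with other genes at 95% identity or more. With edgeR on library totals, which are scaled by all reads of a library, the homeostatic value was -0.16.

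Among the members, the immunoproteasome subunit *Psmb9* had the largest log2 fold change in the AMI comparison. It was also first in the homeostatic comparison, though *Nlrc5* was ahead of it without homeostatic *Bmi1*-CPC replicate 1 (1.40 for *Nlrc5*, 1.36 for *Psmb9*) or without *Sca-1*-YFP- replicate 4 (1.33 for *Nlrc5*, 1.31 for *Psmb9*). *Psmb9*, the subunit that replaces PSMB6, had values of 15.3, 14.2, 16.1 and 17.2 in AMI *Bmi1*-CPC, 43.6, 46.8, 38.1 and 33.5 in homeostatic *Bmi1*-CPC, and 13.5, 19.9, 14.1 and 12 in the *Sca-1*-YFP- cells. Its homeostatic libraries stood apart from all others, and its AMI libraries fell inside the *Sca-1*-YFP- range. The log2 fold change of *Psmb9* was -1.30 ± 0.13 in the AMI comparison and 1.40 ± 0.17 in the homeostatic one. The mean was 61.2% lower after AMI.

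*Psmb8*, which replaces PSMB5, had values of 24.8, 15.6, 18.7 and 21.2 in AMI *Bmi1*-CPC, 34.5, 33.4, 33.5 and 32.8 in homeostatic *Bmi1*-CPC, and 13.5, 20.2, 11.0 and 10.3 in the *Sca-1*-YFP- cells. The homeostatic libraries differed little among themselves and lay above all others. *Psmb8* had a log2 fold change of -0.73 ± 0.14 in the AMI comparison and 1.27 ± 0.18 in the homeostatic one. *Psmb10*, which replaces PSMB7, had values of 10.8, 10.7, 13.1 and 12.8 in AMI *Bmi1*-CPC, 23.5, 29.3, 18.6 and 19.8 in homeostatic *Bmi1*-CPC, and 13.3, 15.0, 13.6 and 15.0 in the *Sca-1*-YFP- cells. No groups overlapped, and AMI *Bmi1*-CPC were the lowest. *Psmb10* had a log2 fold change of -0.87 ± 0.16 in the AMI comparison and 0.62 ± 0.16 in the homeostatic one. The homeostatic value of *Psmb10* did not pass with edgeR on library totals (0.43).

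Of the constitutive subunits that these replace, 1 fell and 1 rose after AMI. *Psmb5* averaged 13.3 ± 1.21 in AMI *Bmi1*-CPC, 18.1 ± 3.32 in homeostatic *Bmi1*-CPC and 19.5 ± 1.95 in the *Sca-1*-YFP- cells (SD, n = 4 each), and fell after AMI with a log2 fold change of -0.41 (limma, adjusted p = 0.041). *Psmb7* averaged 49.1 ± 3.81, 38.9 ± 5.04 and 33.2 ± 2.08 in the same order of groups and rose after AMI with a log2 fold change of 0.34 (limma, adjusted p = 0.030). *Psmb6* averaged 24.9, 23.9 and 23.2 and did not pass in either comparison, as *Psmb5* and *Psmb7* did not in the homeostatic one. The ratio of an immunosubunit to its counterpart within a library was not scaled by length, so it compares groups and not subunits. *Psmb9* over *Psmb6* averaged 0.635 ± 0.045 in AMI *Bmi1*-CPC, 1.70 ± 0.163 in homeostatic *Bmi1*-CPC and 0.664 ± 0.242 in the *Sca-1*-YFP- cells. *Psmb10* over *Psmb7* averaged 0.243 ± 0.033 in AMI *Bmi1*-CPC, 0.583 ± 0.046 in homeostatic *Bmi1*-CPC and 0.431 ± 0.048 in the *Sca-1*-YFP- cells. *Psmb8* over *Psmb5* averaged 1.52 ± 0.346 in AMI *Bmi1*-CPC, 1.89 ± 0.291 in homeostatic *Bmi1*-CPC and 0.696 ± 0.152 in the *Sca-1*-YFP- cells. The AMI libraries lay below the homeostatic ones for the first 2 ratios and overlapped them for *Psmb8* over *Psmb5*, where the denominator fell as well. For *Psmb10* over *Psmb7* the denominator rose, so that ratio fell further than *Psmb10* alone. The AMI and homeostatic libraries of *Psmb5* overlapped, as did those of *Psmb7*.

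**Figure D3:**
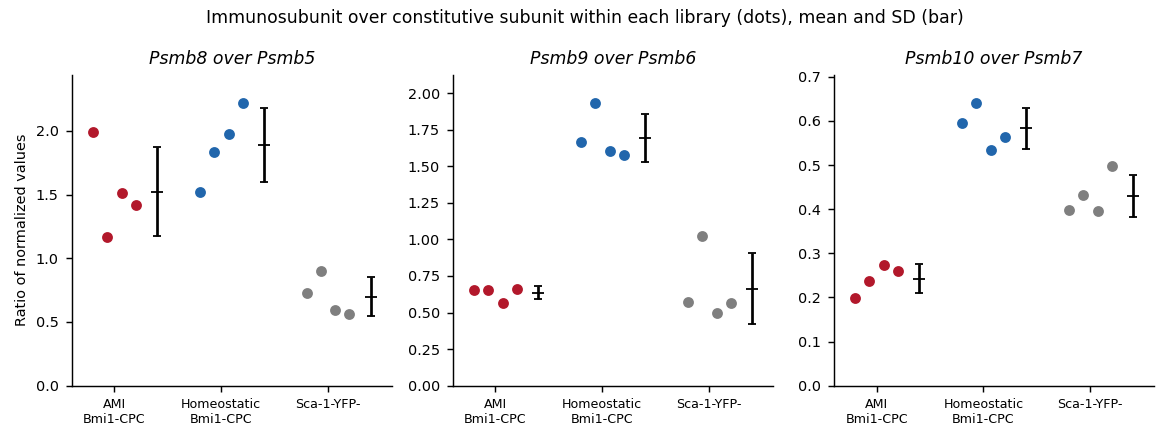
Ratio of each immunosubunit to the constitutive subunit it replaces within each library (vertical axes, ratio of normalized values, from 0), with AMI *Bmi1*-CPC, homeostatic *Bmi1*-CPC and *Sca-1*-YFP- cells from left to right; dots are libraries and the black bar is the mean with its SD. *Psmb9* over *Psmb6* averages 0.635 after AMI and 1.70 in homeostatic *Bmi1*-CPC, whereas *Psmb8* over *Psmb5* overlaps between these groups.

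*Nlrc5*, the class I transactivator, had values of 23, 17.9, 23.6 and 21.5 in AMI *Bmi1*-CPC, 22.3, 32.7, 40.8 and 29.9 in homeostatic *Bmi1*-CPC, and 9.95, 12.1, 12.9 and 15.0 in the *Sca-1*-YFP- cells. Homeostatic replicate 1 lay inside the AMI range, and all *Sca-1*-YFP- libraries lay below all *Bmi1*-CPC libraries. The log2 fold change was -0.51 ± 0.17 in the AMI comparison and 1.25 ± 0.19 in the homeostatic one. The AMI value of *Nlrc5* did not pass without AMI *Bmi1*-CPC replicate 2 (-0.42) or 4 (-0.51), or without homeostatic *Bmi1*-CPC replicate 2 (-0.48), 3 (-0.37) or 4 (-0.52), nor with edgeR on library totals (-0.47).

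**Figure D4:**
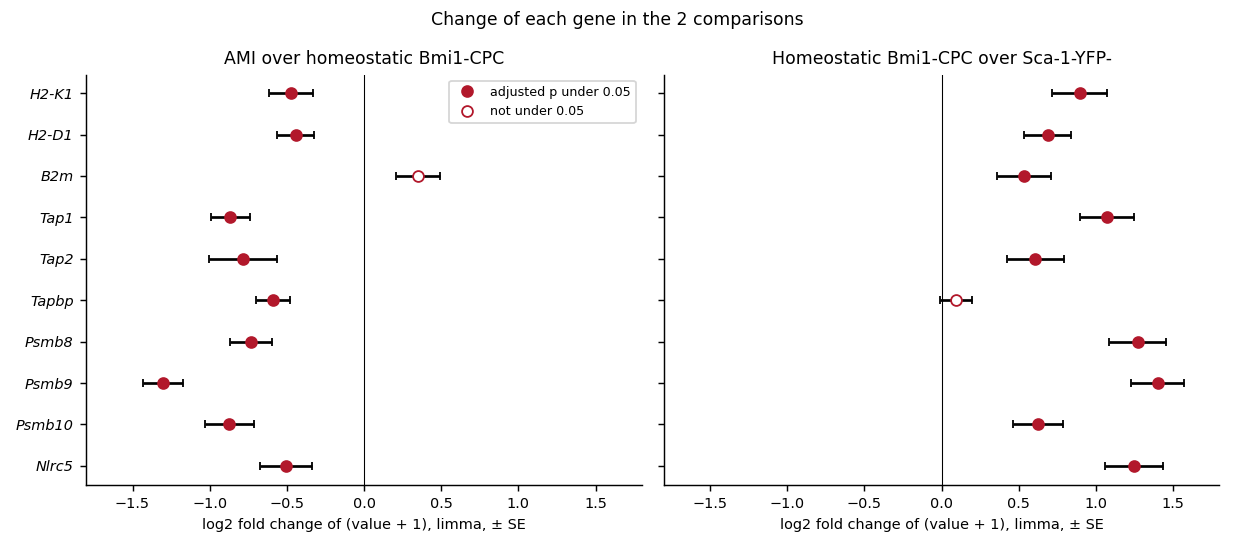
log2 fold change of each member with its SE from limma on log2(value + 1), for AMI over homeostatic *Bmi1*-CPC (left) and homeostatic *Bmi1*-CPC over *Sca-1*-YFP- cells (right); filled points passed an adjusted p under 0.05. *Psmb9* lies at -1.30 and 1.40, and the open points are *B2m* after AMI (0.35) and *Tapbp* in the homeostatic comparison (0.09).

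AMI *Bmi1*-CPC and *Sca-1*-YFP- cells are set side by side as values only. Their libraries overlapped for 6 of the 10 members (*H2-K1*, *H2-D1*, *Tap1*, *Tap2*, *Psmb8* and *Psmb9*). *B2m* and *Nlrc5* were higher in every AMI library, and *Tapbp* and *Psmb10* lower in every AMI library. Over all genes, 46.8% had no overlap between these groups. The ratio of the AMI mean to the *Sca-1*-YFP- mean ranged from 0.708 for *Tapbp* to 1.82 for *B2m*. *Sca-1*-YFP- cells had the lowest mean of the 3 groups for 7 members, and AMI *Bmi1*-CPC for *Tap2*, *Tapbp* and *Psmb10*.

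Between genes, levels were compared per 1 kb of the longest coding transcript. *B2m* stood first in every group, at 2618 in AMI *Bmi1*-CPC, 2061 in homeostatic *Bmi1*-CPC and 1438 in the *Sca-1*-YFP- cells. *H2-K1* followed at 309, 432 and 233, and *H2-D1* at 128, 175 and 109, in the same order of groups. The order of these 3 was the same in all groups. *Tapbp* had 21.3, 32.2 and 30.1 per kb, above *Tap1*, its transporter partner, at 8.33, 15.6 and 7.31. The immunosubunits in homeostatic *Bmi1*-CPC had 30.0 per kb for *Psmb9*, 20.6 for *Psmb8* and 17.4 for *Psmb10*. The lowest members per kb were *Tap2*, with 2.45, 4.39 and 2.74, and *Nlrc5*, with 2.84, 4.15 and 1.65.

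Across the 12 libraries most members varied together, as a description of libraries that fall into 3 groups. The Pearson r of a member's log2(value + 1) with the mean of the other 9 was 0.959 for *Tap1*, 0.938 for *H2-D1*, 0.924 for *Psmb9*, 0.920 for *H2-K1* and 0.897 for *Psmb8*. It was 0.832 for *Nlrc5*, 0.811 for *Tap2* and 0.755 for *Psmb10*, and lowest for *Tapbp*, at 0.353, and *B2m*, at 0.300. Once each group's mean was taken away, r was 0.850 for *H2-D1*, 0.836 for *H2-K1*, 0.801 for *Tap2*, 0.744 for *Tap1* and 0.622 for *Psmb9*. It was lower for the other members, at 0.492 for *Psmb8*, 0.444 for *Tapbp*, 0.437 for *Nlrc5*, 0.436 for *B2m* and 0.359 for *Psmb10*. The members that differed most between libraries of 1 group were *Psmb8* in the *Sca-1*-YFP- cells, with a coefficient of variation of 32.5%, and *Tap2* in AMI *Bmi1*-CPC, with 27.5%. *Psmb8* in homeostatic *Bmi1*-CPC varied least, with 2.07%.

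Among 12403 other genes, the 5 whose log2(value + 1) was closest to the mean of the members over the 12 libraries, by Pearson r, were *Prdm16* (0.985), a zinc finger transcription factor, *Tanc1* (0.982), *Epb4.1l4a* (0.978), *Uaca* (0.977) and *4632428N05Rik* (0.977). Their r after each group's mean was taken away was 0.953 for *Prdm16*, 0.943 for *4632428N05Rik*, 0.901 for *Epb4.1l4a*, 0.869 for *Tanc1* and 0.832 for *Uaca*. *Prdm16* had a log2 fold change of -0.88 in the AMI comparison and 1.08 in the homeostatic one, close in size to those of *Tap1*.

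Other class I heavy chains and class I-like genes moved in part like *H2-K1*. Of 15 tested, 6 fell and 1 rose after AMI, with a median log2 fold change of -0.41, and 7 were higher and 2 lower in homeostatic *Bmi1*-CPC than in the *Sca-1*-YFP- cells, with a median of 0.54. The 6 that fell were not all among the 7 that were higher, and they included a gene that was lower in the homeostatic comparison. *H2-T23*, which encodes Qa-1, averaged 55.8 in AMI *Bmi1*-CPC, 74.9 in homeostatic *Bmi1*-CPC and 44.1 in the *Sca-1*-YFP- cells, with log2 fold changes of -0.41 (limma, adjusted p = 0.022) and 0.74 (adjusted p = 4.9e-04). *H2-Q7* averaged 137, 181 and 65.0 in the same order, passed in the homeostatic comparison at 1.47 (adjusted p = 6.2e-04) and did not pass after AMI (-0.37, adjusted p = 0.17). The Q genes are near copies of each other, so their separate values are uncertain. *Procr*, the endothelial protein C receptor, was the gene that rose after AMI, by 1.42 on the log2 scale (adjusted p = 6.8e-05). *H2-T24* averaged 22.2, 29.9 and 11.9 in the same order and passed in the homeostatic comparison (1.28, adjusted p = 4.0e-04) but not after AMI (-0.41, adjusted p = 0.068).

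The listed partners of peptide loading and trimming, which do not all belong to the loading complex of tapasin, moved otherwise. Of 18 tested, 10 rose and 1 fell after AMI, with a median log2 fold change of 0.37, and 7 were lower and 1 higher in the homeostatic comparison, with a median of -0.25. *Calr*, the chaperone calreticulin of the loading complex, averaged 214 in AMI *Bmi1*-CPC, 137 in homeostatic *Bmi1*-CPC and 182 in the *Sca-1*-YFP- cells and rose after AMI by 0.63 (limma, adjusted p = 2.6e-04). *Canx*, the chaperone calnexin, rose by 0.59 (adjusted p = 0.0011). Calreticulin and calnexin serve the folding of glycoproteins at large. *Tpp2*, a cytosolic peptidase that trims proteasome products, rose by 0.52 (adjusted p = 0.0011). *Tapbpl*, the tapasin-related peptide editor, was the gene that fell: it had 11.7, 13.8, 13.7 and 15.5 in AMI *Bmi1*-CPC, 19.4, 29.1, 31.8 and 28.5 in homeostatic *Bmi1*-CPC, and 18.8, 12.4, 18.7 and 17.0 in the *Sca-1*-YFP- cells. Its log2 fold change was -0.93 after AMI (adjusted p = 7.5e-04) and 0.67 in the homeostatic comparison (adjusted p = 0.013), where it was the gene that was higher.

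Of 11 constitutive core subunits, 5 rose and none fell after AMI, with a median log2 fold change of 0.35, and none passed in the homeostatic comparison, with a median of 0.01. *Psma1*, an alpha ring subunit, had 39.8 to 42.6 in AMI *Bmi1*-CPC, against 17.8 to 25.0 in homeostatic *Bmi1*-CPC, and rose by 0.93 on the log2 scale (limma, adjusted p = 9.9e-05). Of 8 activators, inhibitors and assembly factors, 1 rose and 2 fell after AMI, and 2 were higher and none lower in the homeostatic comparison. The 2 encode the subunits of the interferon-inducible PA28 activator. *Psme1*, its alpha subunit, had 91.6, 79.9, 106 and 105 in AMI *Bmi1*-CPC, 170, 187, 137 and 150 in homeostatic *Bmi1*-CPC, and 87.9, 122, 99.3 and 79.3 in the *Sca-1*-YFP- cells. The homeostatic libraries lay above all others, with log2 fold changes of -0.75 after AMI (adjusted p = 5.1e-04) and 0.73 in the homeostatic comparison (adjusted p = 0.0017). *Psme2*, its beta subunit, averaged 31.1, 37.1 and 27.7 and passed in the homeostatic comparison (0.41, adjusted p = 0.028) but not after AMI (-0.24, adjusted p = 0.093). *Psme4*, the PA200 activator, was the gene that rose after AMI (0.56, adjusted p = 0.0011).

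Of 15 interferon receptors and signalling genes, 5 fell and 1 rose after AMI, with a median log2 fold change of -0.20, and 3 were higher and none lower in the homeostatic comparison, with a median of 0.23. Over all genes tested, 22% fell and 21.4% rose after AMI, and 16.8% were higher and 17.6% lower in the homeostatic comparison. The count of no list was tested against these shares. *Stat2*, a factor of type I interferon signalling, fell after AMI (-0.65, limma, adjusted p = 3.1e-04), as did *Ifnar2*, a chain of the type I receptor (-0.41, adjusted p = 0.0025). *Jak2*, a kinase of the interferon-gamma receptor among others, rose after AMI (0.61, adjusted p = 2.8e-04). *Irf1*, which interferon-gamma induces and which binds ISRE elements, averaged 102 ± 14.3 in AMI *Bmi1*-CPC, 126 ± 73.7 in homeostatic *Bmi1*-CPC and 84.8 ± 38.8 in the *Sca-1*-YFP- cells (SD, n = 4 each) and passed in neither comparison. Its spread came from replicate 2, at 234 in homeostatic *Bmi1*-CPC and 141 in the *Sca-1*-YFP- cells. *Ifngr1*, a receptor chain, averaged 126, 146 and 163 and passed in neither. The genes of interferon-gamma and interferon-beta were not analysed here.

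Of 14 factors of the X and Y boxes and of NF-kB tested after AMI, 3 rose and 2 fell, with a median log2 fold change of -0.03, and of 13 tested in the homeostatic comparison, 2 were higher and none lower, with a median of 0.15. *Rfxap*, a subunit of the RFX complex that binds the X box and recruits NLRC5, averaged 5.72 in AMI *Bmi1*-CPC, 11.1 in homeostatic *Bmi1*-CPC and 7.43 in the *Sca-1*-YFP- cells, with log2 fold changes of -0.88 (limma, adjusted p = 0.0017) and 0.57 (adjusted p = 0.047). *Rfx5*, the DNA-binding subunit, averaged 19.8, 17.3 and 19.0 and passed in neither. *Rel*, the NF-kB subunit c-Rel of leukocytes, averaged 85.7, 32.1 and 21.2 and rose after AMI (1.39, adjusted p = 2.3e-05), while *Rela*, the ubiquitous subunit, fell (-0.55, adjusted p = 6.7e-04). *Ciita*, the class II transactivator and relative of *Nlrc5*, averaged 5.51, 2.5 and 0.673, rose after AMI (0.87, adjusted p = 0.048) and was too low to be tested in the homeostatic comparison.

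Genes of the MHC class II pathway, which presents peptides from outside the cell, rose after AMI in 7 of 8 and were higher in homeostatic *Bmi1*-CPC in 8 of 8, with median log2 fold changes of 1.44 and 2.86. The list includes *Cd74* and *Ctss* beside class II chains. *Cd74*, the invariant chain, averaged 275 in AMI *Bmi1*-CPC, 111 in homeostatic *Bmi1*-CPC and 2.30 in the *Sca-1*-YFP- cells. After AMI its log2 fold change was 1.30 (limma, adjusted p = 1.8e-04), opposite in sign to those of 9 of the 10 class I and immunoproteasome genes.

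The 12 endothelial markers were all higher in the homeostatic comparison (median log2 fold change 1.61), and 10 of them fell and none rose after AMI (median -0.69). Their summed value was 4034 to 6070 in AMI *Bmi1*-CPC, 6789 to 8808 in homeostatic *Bmi1*-CPC and 1805 to 3756 in the *Sca-1*-YFP- cells, the order of groups seen for the means of 6 of the members. The highest sum of homeostatic *Bmi1*-CPC, 8808, was that of replicate 3, where *H2-K1*, *H2-D1* and *Nlrc5* were also highest in that group. The other members were highest in other libraries of the group. The highest AMI sum, 6070, was that of replicate 4, where *H2-D1*, *B2m*, *Tap1* and *Psmb9* were highest, and the other members were highest elsewhere. The highest *Sca-1*-YFP- sum, 3756, was that of replicate 2, the library with the highest value of its group for every member except *Nlrc5*. That library also had the highest sums of its group for the pericyte and smooth muscle (824), cardiomyocyte (213) and proliferation markers (151). Its leukocyte, macrophage, B cell and fibroblast sums were not the highest. Because its values were the highest for these members, leaving it out could only raise their homeostatic fold changes and is no check on them. The members' median went from 0.79 to 0.90 on the log2 scale, and 9 passed as higher. Without *Sca-1*-YFP- replicate 1 or replicate 4, 7 members passed (medians 0.68 and 0.81). Without replicate 3, 9 passed (median 0.80). The 11 cardiomyocyte markers moved in the same directions as the endothelial markers. Their sums were 299 to 472 in AMI *Bmi1*-CPC, 863 to 1437 in homeostatic *Bmi1*-CPC and 83.8 to 213 in the *Sca-1*-YFP- cells. Of 9 pericyte and smooth muscle markers, 4 fell and 2 rose after AMI (median -0.35), and 8 were higher and 1 lower in the homeostatic comparison (median 1.62). Their sum was 1657 to 2047 in AMI *Bmi1*-CPC, 1633 to 2567 in homeostatic *Bmi1*-CPC and 448 to 824 in the *Sca-1*-YFP- cells. No marker of these 3 lists was at 0 reads in any library. Of 12 proliferation markers, 11 rose and none fell after AMI (median 1.51), and 7 were higher and none lower in the homeostatic comparison (median 0.93).

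Of 9 leukocyte markers, 8 rose and none fell after AMI (median log2 fold change 1.92), and 8 were higher in the homeostatic comparison (median 2.39). Their sum was 405 to 674 in AMI *Bmi1*-CPC, 142 to 195 in homeostatic *Bmi1*-CPC and 47.9 to 60.6 in the *Sca-1*-YFP- cells, and 3 of the 9 were at 0 reads in some *Sca-1*-YFP- library. The sum of 13 macrophage markers was 857 to 1495, 181 to 340 and 21.1 to 38.2 in the same order, with 3 of them at 0 reads in every *Sca-1*-YFP- library. Of the 12 fibroblast markers, 8 rose and 2 fell after AMI and all 12 were lower in the homeostatic comparison, with sums of 16948 to 25973 in AMI *Bmi1*-CPC, 4398 to 8185 in homeostatic *Bmi1*-CPC and 22721 to 26699 in the *Sca-1*-YFP- cells. The sum of 5 B cell markers was 44.5 to 173 in AMI *Bmi1*-CPC, 18.2 to 33.3 in homeostatic *Bmi1*-CPC and 0.581 to 1.24 in the *Sca-1*-YFP- cells. *B2m* was the member whose mean followed the order of the leukocyte sums. The part of any of these cell types in the members' levels was not tested.

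**Figure D5:**
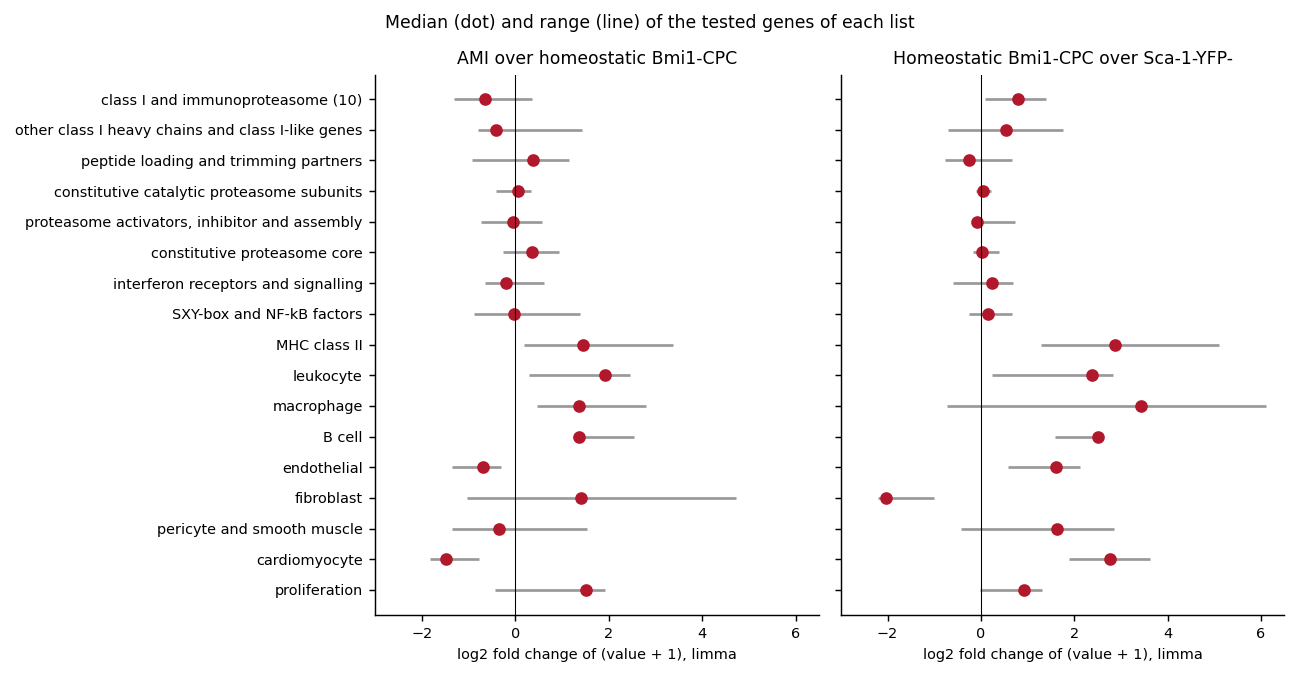
Median (dot) and range (line) of the log2 fold changes of the tested genes of each list, for AMI over homeostatic *Bmi1*-CPC (left) and homeostatic *Bmi1*-CPC over *Sca-1*-YFP- cells (right), from limma on log2(value + 1). The class I and immunoproteasome genes have medians of -0.66 and 0.79 and the endothelial markers -0.69 and 1.61, while the leukocyte markers lie above 0 in both panels (1.92 and 2.39).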

How the data were processed

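Heart cells were sorted, and amplified cDNA was sequenced as unstranded 75-base single reads. The submitters' processing notes name cutadapt, RSEM, edgeR and build NCBIM37, with versions not given in the sources used here. The deposited normalized values (unit: signal) were made by the authors as whole reads plus 0.5, times 1 factor per library. Of the values, 100% came out as whole reads within 1e-06. The log2 fold changes, linear fold changes (score) and p-values of the authors' own comparisons, also deposited, were not used. How the authors filtered the tables to 12528 genes is not given in the sources used here.

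Here log2(value + 1) was fitted per comparison with limma 3.58.1 (R 4.3.3, two-sided, variance trend) over those genes that exceeded a value of 1 in 4 or more of 8 libraries. Benjamini-Hochberg adjustment ran over all genes tested, with a threshold of 0.05. The alternatives were a pseudocount of 0.5, no filter, a replicate block, leaving out each library, edgeR 4.0.16 quasi-likelihood with 3 scalings, and DESeq2 1.42.0, both on the recovered reads. edgeR with TMM called 4272 genes in the homeostatic comparison and 5464 in the AMI one. edgeR on library totals without *mt-Rnr2* was chosen after seeing the data. On data simulated with the same dispersion for every gene, limma recovered 86 of 100 genes changed by 1 log2 unit in the homeostatic design (12479 genes). It recovered 87 of 100 in the AMI design (12510 genes), and 100 of 100 changed by 2 in each. Of the calls, 8 of 194 and 11 of 198 were false. The changed genes were not low ones and no pairing was simulated. These rates do not carry over to smaller changes or more variable genes.

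The members and lists were chosen with earlier results of these data known. All members are named. From the other lists, up to 4 genes past the threshold with the smallest adjusted p may be named, with the counterparts of members, the sort markers, and the 5 genes most like the members' mean. Some listed genes are not reported here. Coordinates, promoters and lengths come from RefSeq (GRCm38.p6) and GENCODE M21, since no genome of NCBIM37 was used here. *Psmb9* and the other members were matched by symbol. Near-identical stretches came from blastn 2.17.0, at 95% identity over 75 bases or more. In the homeostatic comparison, same-numbered libraries deviated together (r of 0.262, 0.246, 0.159 and 0.301), so the numbers pair them. The paper calls the samples of its heat maps matched, but where the pairing comes from is not given in the labels. The main fit and the fits without 1 library took no account of it. The number of reads limits low genes: 3 reads equal a value of 0.369 to 1.04.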

Additional observations from a re-analysis of the deposited data

Results flagged for a closer look

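Of 39 groups of 4 libraries examined, over the 10 members and 3 subunit ratios, 3 had a library far from the others; chance gives about 1 in 20. *Tap1* in *Sca-1*-YFP- replicate 2 was 29.8, against 18.5 to 19.2 in the other libraries of that group. In the same library, *Psmb9* over *Psmb6* was 1.02, against 0.494 to 0.570 in the others. *Psmb9* over *Psmb6* in AMI *Bmi1*-CPC replicate 3 was 0.567, against 0.657 to 0.659 in the others, a gap that stands out because these 3 were nearly equal.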

How the results depend on the processing

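Of 320 member values under 16 alternatives (20 values each), 296 kept their direction and their side of the threshold, 20 no longer passed, 3 newly passed and 1 changed sign. In the homeostatic comparison 6 members passed under every alternative, as did 6 in the AMI comparison. The sign changed for *Tapbp* in the homeostatic comparison, at -0.16 with edgeR on library totals, where it did not pass. That scaling had 6 members passing in each comparison, without *B2m*, *Tap2*, *Psmb10* and *Tapbp* in the homeostatic one and without *H2-K1*, *H2-D1*, *B2m* and *Nlrc5* in the AMI one. It moved the median of all genes by -0.26 in the homeostatic comparison. There 28.2% of 4713 called genes were higher, against 48.8% of 4286 with limma, and in the AMI comparison 60.8% of 4567 were higher, against 49.3% of 5421. Without *mt-Rnr2* in the totals, 45.3% and 53.1% were higher and 9 members passed in each. Leaving out each library gave 7 to 9 members in the homeostatic comparison (3629 to 4345 genes) and 8 to 9 in the AMI one (4456 to 5614 genes). Under the replicate block, 9 members passed in the homeostatic comparison (4667 genes), changing no member's call. There the limma adjusted p was 0.019 for *B2m* and 0.012 for *Tap2*, against 0.033 and 0.021 without the block. In the AMI comparison same-numbered libraries did not deviate together (r of 0.075, -0.010, -0.009 and 0.002), and 10 members passed under the block (5213 genes) and with DESeq2, *B2m* being the addition, as higher. Depth limits *Tap2* most: its libraries held 31 to 94 reads, the lowest minimum of the members.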
